A study of Homo sapiens with 4 samples.

Results

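The clustered protocadherin genes are 57 rows of the count table, taken by gene symbol out of 26364 genes. They comprise 15 genes of the alpha cluster, 19 of the beta cluster and 23 of the gamma cluster, and 4 of the 57 are pseudogenes. All lie on chromosome 5 between positions 140165721 and 140892548 of hg19, a stretch of 726.8 kb, and all are transcribed from the plus strand. The rule uses gene symbols and no measured value.

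The mRNA came from NTERA2, an embryonal carcinoma line of human origin that keeps many genes of the pluripotent state active and can differentiate towards neurons. That is background on the line, and the labels themselves describe it as a lung carcinoma line. They give the genotype as BEND3 sh60 for replicates 1 and 2 and as BEND3 LacZ for replicates 1 and 3, all of the same line and clone. BEND3 is a protein with BEN domains that binds chromatin and represses transcription. Here sh60 is read as a short hairpin RNA against BEND3 and LacZ as its control, which the labels do not spell out, and they give no time, delivery or second hairpin.

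Each protocadherin of these clusters is a cell-surface cadherin that binds the same isoform on a facing cell. Neurons choose a few isoforms each, and the resulting combination is known as a barcode by which a neuron tells its own branches from those of others. Every alpha and gamma gene has its own promoter and 1 large exon of its own that encodes the extracellular part, the membrane span and a short cytoplasmic stretch. This exon is then spliced to 3 exons shared by the whole cluster. Beta genes have a single exon and no shared end. The C-type genes at the ends of the alpha and gamma clusters (PCDHAC1, PCDHAC2, PCDHGC3, PCDHGC4 and PCDHGC5) differ in sequence from the other members and, in mouse neurons, tend to be expressed in most cells of a type, whereas the others are chosen at random. Choice in neurons depends on CTCF and cohesin, which loop a promoter to a distant enhancer, and on DNA methylation.

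The shared exons decide what can be measured. In the deposited annotation the 3 alpha exons lie at positions 140358534 to 140358592, 140362060 to 140362148 and 140389212 to 140391929 of chromosome 5 (hg19), and all 15 alpha genes carry them. The gamma exons lie at 140874374 to 140874432, 140884960 to 140885048 and 140890514 to 140892546. With exactly these coordinates they are in 22, 22 and 20 of the 23 gamma rows. A read inside them overlaps many genes at once and was left out under the counting defaults, so each alpha and gamma count comes from the gene's own exon and measures use of that first exon. The sequences below show where the own exon (last 20 bases in lower case) meets the first shared exon (59 bases in capitals), as read from GENCODE release 29 transcripts. They are shown because the capitals are identical within a cluster while the lower-case stretch names the gene.
PCDHGC4: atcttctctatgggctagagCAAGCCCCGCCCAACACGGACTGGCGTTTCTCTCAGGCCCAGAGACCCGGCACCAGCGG
PCDHGC3: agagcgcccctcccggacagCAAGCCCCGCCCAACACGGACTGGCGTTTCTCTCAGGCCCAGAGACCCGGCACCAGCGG
PCDHGA11: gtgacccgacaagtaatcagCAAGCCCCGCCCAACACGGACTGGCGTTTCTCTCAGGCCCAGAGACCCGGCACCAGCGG
PCDHAC2: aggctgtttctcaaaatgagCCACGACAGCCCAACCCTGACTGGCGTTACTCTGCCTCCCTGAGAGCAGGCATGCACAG
PCDHA4: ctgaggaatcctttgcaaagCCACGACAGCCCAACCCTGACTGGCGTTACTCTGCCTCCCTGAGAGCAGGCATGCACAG

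The libraries held 33798665 and 44788461 counts in sh60 replicates 1 and 2, against 42538561 and 30338285 counts in LacZ replicates 1 and 3. Levels are CPM, counts scaled to a common library size with TMM factors, in which 3 counts were worth 0.0663 to 0.0998 CPM. Changes are log2 fold changes of sh60 over LacZ with their SE from edgeR's quasi-likelihood test, and p-values are adjusted over all 16040 genes tested, with 0.05 as the threshold. The labels do not say whether replicates were separate cultures, so p-values cover only the spread among these 4 libraries, part of which may be technical. BEND3 itself had 55.7 and 52.0 CPM in sh60, against 68.8 and 79.3 CPM in LacZ (log2 fold change -0.46 ± 0.098 SE, edgeR adjusted p = 0.00168). That is a partial reduction, and without LacZ replicate 3 it did not pass (log2 fold change -0.36, edgeR adjusted p = 0.153).

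Most gamma genes with appreciable reads were lower in sh60, no beta gene passed, and in the alpha cluster PCDHAC2 was lower. Of the 57 members, 36 had enough counts to be tested and 21 did not. Among the 36, 1 passed as higher and 8 as lower in sh60. Over all genes tested, 28.8% passed, 15.8% as higher and 13.0% as lower. The 9 members that passed are 25% of those tested, a share near that of all genes. By cluster the counts were uneven, which was not tested. In the gamma cluster 0 of 17 tested members rose and 6 fell (35.3%, beside 13.0% of all genes), in the alpha cluster 1 of 7 rose and 2 fell, and in the beta cluster 0 of 12 passed in either direction. The median log2 fold change was -0.48 over the tested gamma members, 0.06 over alpha and 0.02 over beta, beside -0.0042 over all genes tested. These medians move with 1 library: the gamma median was -0.29 without LacZ replicate 1 and -0.68 without LacZ replicate 3, the alpha median was -0.03 without LacZ replicate 1 or sh60 replicate 2, and the beta median was 0.18 without LacZ replicate 3. The counts describe only the members with enough reads to be tested. Both sh60 values lay above both LacZ values in 7 of the 36 and below both in 15, beside 32.1% and 32.3% of all genes tested. In bulk samples like these, fewer cells that use a gene and less RNA per cell cannot be told apart.

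**Figure D1:**
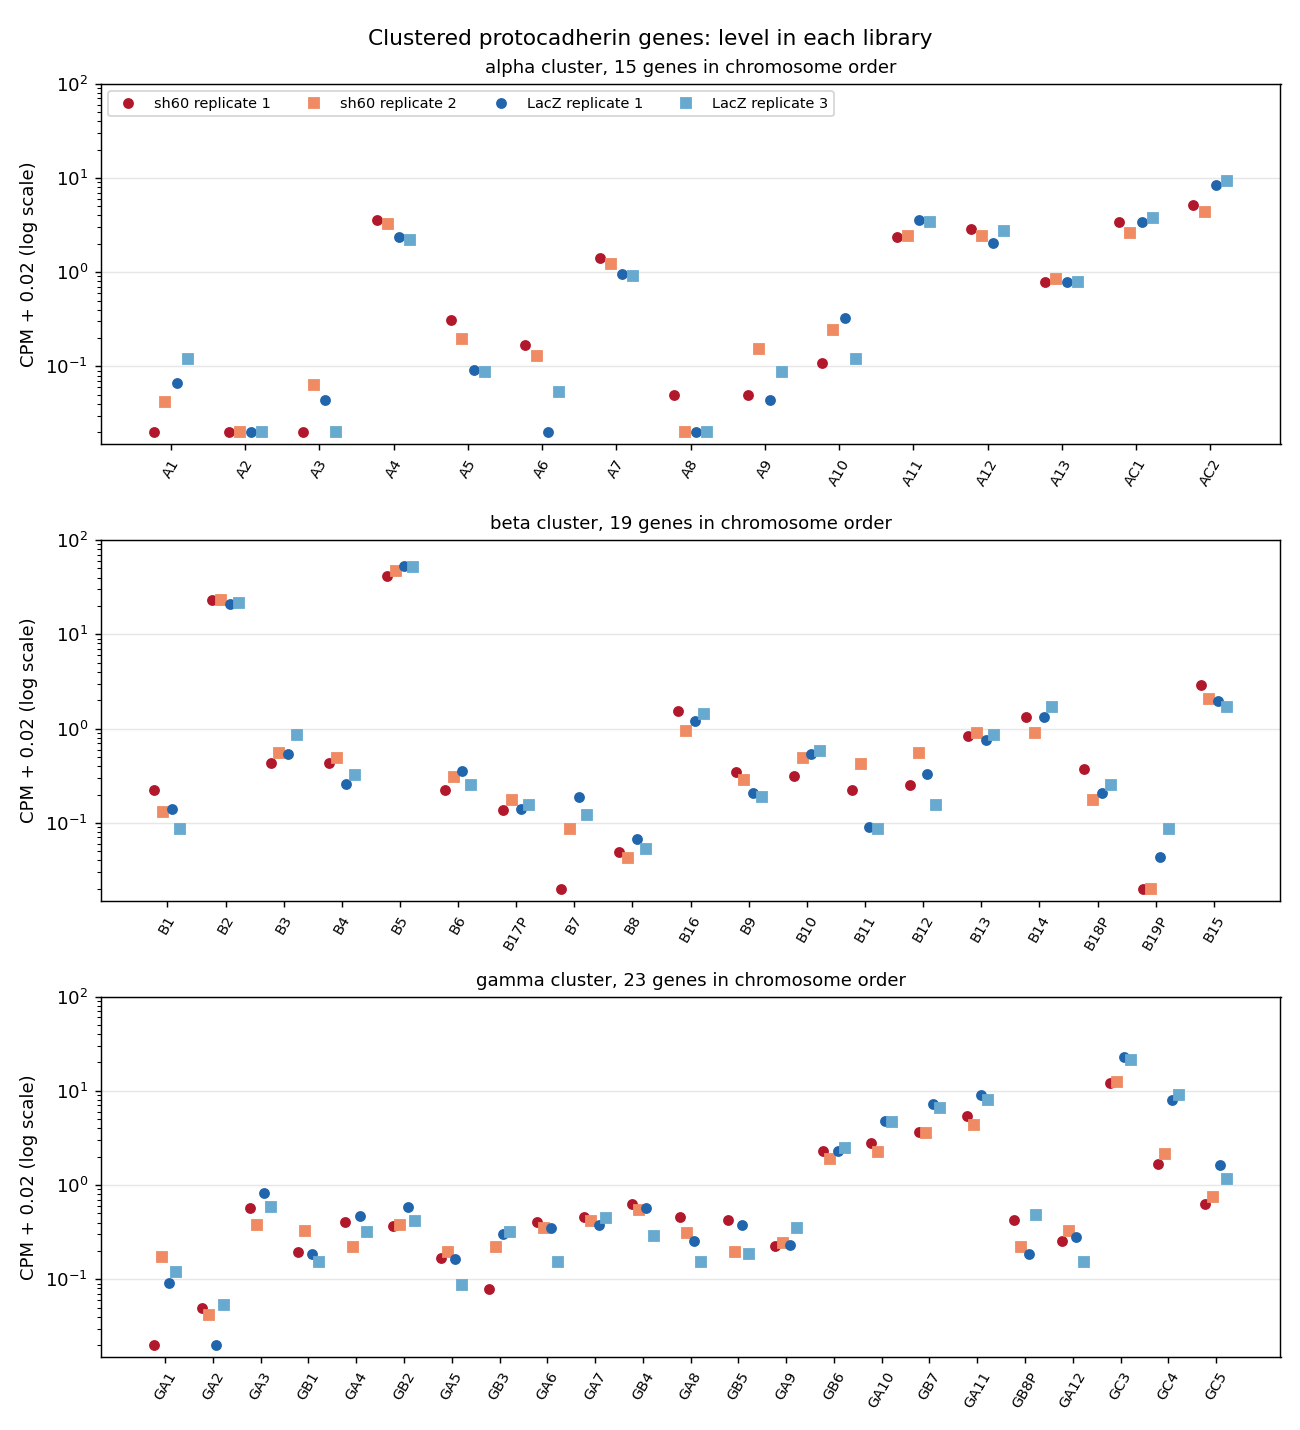
Level of every member in every library, in CPM plus 0.02 on a log axis, with genes in chromosome order and sh60 points left of LacZ points. Most members lie under 1 CPM, PCDHB5 and PCDHB2 stand highest, and in the gamma cluster the sh60 points fall below the LacZ points at the right-hand end.

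PCDHGC4 had the largest fall of the 36 tested members. In mice this C-type gamma gene is needed for the survival of cortical interneurons. It had 57 and 96 counts, or 1.67 and 2.12 CPM, in sh60 libraries, against 338 and 270 counts, or 8.03 and 8.98 CPM, in LacZ libraries. Both sh60 values were far below both LacZ values. The sh60 level was 0.226 of the LacZ level (95% confidence interval 0.174 to 0.294; log2 fold change -2.14 ± 0.180 SE, edgeR adjusted p = 1.29e-07). Only 29 tested genes in the whole table passed as lower with a log2 fold change at or under that of PCDHGC4.

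PCDHGC3, the most abundant gamma gene, is known in mouse neurons to promote dendrite branching through the WNT pathway protein AXIN1. It had 12.0 and 12.4 CPM in sh60, against 23.1 and 21.1 CPM in LacZ, with no overlap. The sh60 level was 0.550 of the LacZ level (95% interval 0.464 to 0.651, log2 fold change -0.86 ± 0.116 SE, edgeR adjusted p = 2.16e-05). The intervals of PCDHGC4 and PCDHGC3 do not overlap, so the fall of PCDHGC4 was the larger. Within each library PCDHGC4 had 0.140 and 0.171 counts per PCDHGC3 count in sh60, against 0.347 and 0.425 in LacZ, a ratio that does not depend on the scaling of the library.

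PCDHGC5, the last and rarest of the gamma C genes, had 0.617 and 0.729 CPM in sh60, against 1.61 and 1.13 CPM in LacZ. All sh60 values were lower, but the LacZ values themselves lay far apart (log2 fold change -1.04 ± 0.307 SE, edgeR adjusted p = 0.0163). The call was lost with DESeq2 (adjusted p = 0.123) and when LacZ replicate 1 (edgeR adjusted p = 0.249), sh60 replicate 1 (0.0736) or sh60 replicate 2 (0.0522) was left out. Its ratio to PCDHGC3 was 0.0516 and 0.0589 in sh60, against 0.0699 and 0.0535 in LacZ, and these ranges overlap.

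The other gamma genes that fell are PCDHGA10, PCDHGB7 and PCDHGA11, members of the A and B types that neurons choose at random. PCDHGA10 had 2.79 and 2.21 CPM in sh60, against 4.82 and 4.66 CPM in LacZ (log2 fold change -0.94 ± 0.188 SE, edgeR adjusted p = 0.00101). PCDHGB7 had 3.64 and 3.58 CPM in sh60, against 7.15 and 6.55 CPM in LacZ (log2 fold change -0.93 ± 0.160 SE, edgeR adjusted p = 0.000271). PCDHGA11 had 5.37 and 4.35 CPM in sh60, against 9.05 and 7.88 CPM in LacZ (log2 fold change -0.81 ± 0.159 SE, edgeR adjusted p = 0.00082). None of these 3 genes overlapped between the groups, and each log2 fold change lay within 1 SE of that of PCDHGC3.

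All 6 gamma genes that fell lie among the last 8 of the cluster, from PCDHGA10 to PCDHGC5. The remaining members of that stretch are the pseudogene PCDHGB8P, which did not pass, and PCDHGA12, which was not tested. Of the 15 gamma genes before PCDHGA10, 10 were tested and 0 passed. Position and level cannot be told apart here, because the genes that fell are also, apart from PCDHGB6, the ones that averaged 1 CPM or more in LacZ. Of the 7 gamma genes that averaged 1 CPM or more in LacZ, 6 fell. The exception is PCDHGB6, the neighbour of PCDHGA10, with 2.29 and 1.86 CPM in sh60, against 2.30 and 2.43 CPM in LacZ (log2 fold change -0.20 ± 0.216 SE, edgeR adjusted p = 0.541). A fall to 0.550 of the LacZ level lies outside its 95% interval of 0.636 to 1.19. PCDHGB6 was chosen after its values were seen. The 10 tested gamma genes under 1 CPM in LacZ had log2 fold changes of -1.06 to 0.87 with SEs of 0.393 to 0.617, and 0 passed. A fall to 0.550 of the LacZ level, as for PCDHGC3, lies outside the 95% intervals of 4 of them (PCDHGA6, PCDHGA7, PCDHGB4 and PCDHGA8) and inside those of the other 6, in which such a fall could not be resolved at this depth.

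**Figure D2:**
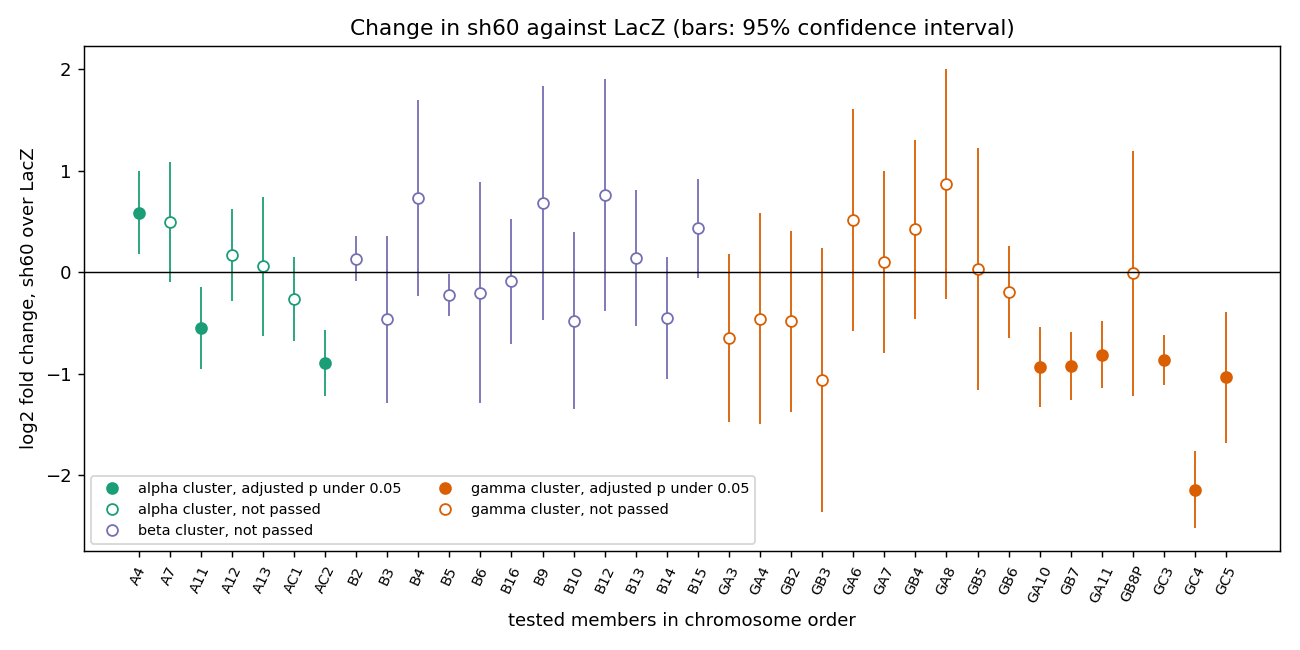
Log2 fold change of sh60 over LacZ with its 95% confidence interval for the 36 tested members in chromosome order, filled where the edgeR adjusted p is under 0.05. The filled gamma points lie together at the right-hand end, with PCDHGC4 lowest at -2.14, and 0 of the beta points is filled.

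In the alpha cluster the clearest change was in PCDHAC2, a C-type gene that serotonergic neurons of the mouse need for the even spacing of their axons. It had 5.20 and 4.37 CPM in sh60, against 8.43 and 9.32 CPM in LacZ, without overlap (log2 fold change -0.89 ± 0.154 SE, edgeR adjusted p = 0.000267). The other alpha C gene, PCDHAC1, had 3.38 and 2.56 CPM in sh60, against 3.40 and 3.69 CPM in LacZ. Its log2 fold change of -0.26 ± 0.197 SE missed the threshold (edgeR adjusted p = 0.352). Its interval reaches from 0.626 to 1.11 of the LacZ level and overlaps that of PCDHAC2, which reaches from 0.430 to 0.674, and the difference between these 2 genes was not tested.

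Among the randomly chosen alpha genes, PCDHA4 was the only member of the family that passed as higher in sh60. It had 3.58 and 3.25 CPM in sh60, against 2.35 and 2.16 CPM in LacZ (log2 fold change 0.59 ± 0.196 SE, edgeR adjusted p = 0.0313). PCDHA11 went the other way, with 2.35 and 2.41 CPM in sh60, against 3.59 and 3.39 CPM in LacZ (log2 fold change -0.55 ± 0.191 SE, edgeR adjusted p = 0.0368). Neither gene overlapped between the groups, and the count of PCDHA4 per count of PCDHA11 was 1.52 and 1.35 in sh60, against 0.656 and 0.637 in LacZ. Both calls were lost with DESeq2 (adjusted p = 0.142 for PCDHA4 and 0.167 for PCDHA11) and in each fit that left out a library, where the adjusted p of PCDHA4 was 0.0540 to 0.144 and that of PCDHA11 was 0.0817 to 0.169. The 4 other tested alpha genes had log2 fold changes of -0.26 to 0.50. The highest of these was that of PCDHA7, with 1.38 and 1.22 CPM in sh60, against 0.926 and 0.898 CPM in LacZ (edgeR adjusted p = 0.205).

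The beta cluster was carried by 2 genes. PCDHB5 had 41.6 and 47.3 CPM in sh60, against 52.6 and 51.4 CPM in LacZ, the highest level of the family (log2 fold change -0.23 ± 0.0992 SE, edgeR adjusted p = 0.0988). PCDHB2 had 23.1 and 23.2 CPM in sh60, against 20.9 and 21.3 CPM in LacZ (log2 fold change 0.13 ± 0.107 SE, edgeR adjusted p = 0.387). For both genes the groups did not overlap, PCDHB5 being lower and PCDHB2 higher in sh60, but neither difference passed. PCDHB5 passed as lower without sh60 replicate 2 (edgeR adjusted p = 0.00603) and when trends of GC content and length were removed (0.00747). The 95% intervals of the fold were 0.740 to 0.988 for PCDHB5 and 0.939 to 1.28 for PCDHB2, so a fall to 0.550 of the LacZ level, as for PCDHGC3, lies outside both. Counts of PCDHB5 per count of PCDHB2 were 1.80 and 2.04 in sh60, against 2.51 and 2.42 in LacZ.

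PCDHB15 was the third beta gene by level, with 2.88 and 2.05 CPM in sh60, against 1.92 and 1.66 CPM in LacZ (log2 fold change 0.43 ± 0.233 SE, edgeR adjusted p = 0.182). All 12 tested beta genes lay between log2 fold changes of -0.48 and 0.76. Of these, 7 averaged under 1 CPM in LacZ, with SEs of 0.319 to 0.549. A fall to 0.550 of the LacZ level, as for PCDHGC3, lies inside the 95% intervals of PCDHB3, PCDHB6, PCDHB10 and PCDHB14, in which it could not be resolved. It lies outside the intervals of the other tested beta genes. PCDHB11, with 0.206 and 0.398 CPM in sh60, against 0.0712 and 0.0665 CPM in LacZ, was too low to be tested. Without a count filter it passed as higher (log2 fold change 2.12, edgeR adjusted p = 0.0442), as it did without sh60 replicate 1.

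The 21 members that were not tested had between 0 and 18 counts in a library and at most 0.398 CPM. PCDHA2 had no count in any library, which allows up to 0.0663 to 0.0998 CPM from counting error alone. They comprise 8 alpha, 7 beta and 6 gamma genes, among them 3 of the pseudogenes. Whether these genes are silent or low cannot be said at this depth.

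How the counts were spread within a cluster also differed. The 23 gamma rows summed to 33.2 and 31.4 CPM in sh60, against 61.0 and 56.7 CPM in LacZ, a ratio of group means of 0.549. The alpha rows summed to 20.1 and 17.7 CPM in sh60, against 22.0 and 23.3 CPM in LacZ, and the ratio was 0.837. The beta rows summed to 73.9 and 78.7 CPM in sh60, against 81.5 and 81.1 CPM in LacZ, with a ratio of 0.938. The sums of the groups did not overlap in any cluster, which with 2 libraries a group is common. Of all single genes tested, 32.3% had both sh60 values below both LacZ values and 32.1% had both above. The cluster sums follow their most abundant genes and were not tested.

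Shares of a cluster's counts do not depend on the size of the library, and their 95% Wilson intervals cover counting error only. PCDHGC4 made up 5.04% (3.91 to 6.48) and 6.75% (5.56 to 8.17) of gamma counts in sh60, against 13.2% (11.9 to 14.5) and 15.8% (14.2 to 17.6) in LacZ. The share of PCDHGC3 overlapped between the groups, with 36.0% and 39.4% in sh60, against 37.9% and 37.2% in LacZ. The 2 alpha C genes together held 42.6% and 39.1% of alpha counts in sh60, against 53.8% and 55.9% in LacZ. PCDHAC2 alone held 25.8% and 24.7% in sh60, against 38.4% and 40% in LacZ. PCDHB5 held 56.2% and 60.1% of beta counts in sh60, against 64.5% and 63.3% in LacZ. PCDHB2 held 31.2% and 29.5% in sh60, against 25.7% and 26.2% in LacZ. Together the pair held 87.4% and 89.6% in sh60, against 90.2% and 89.5% in LacZ, which overlap. PCDHGC4, PCDHAC2 and PCDHB5 thus had smaller shares in both sh60 libraries than in both LacZ libraries, and PCDHB2 larger ones, which was not tested.

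**Figure D3:**
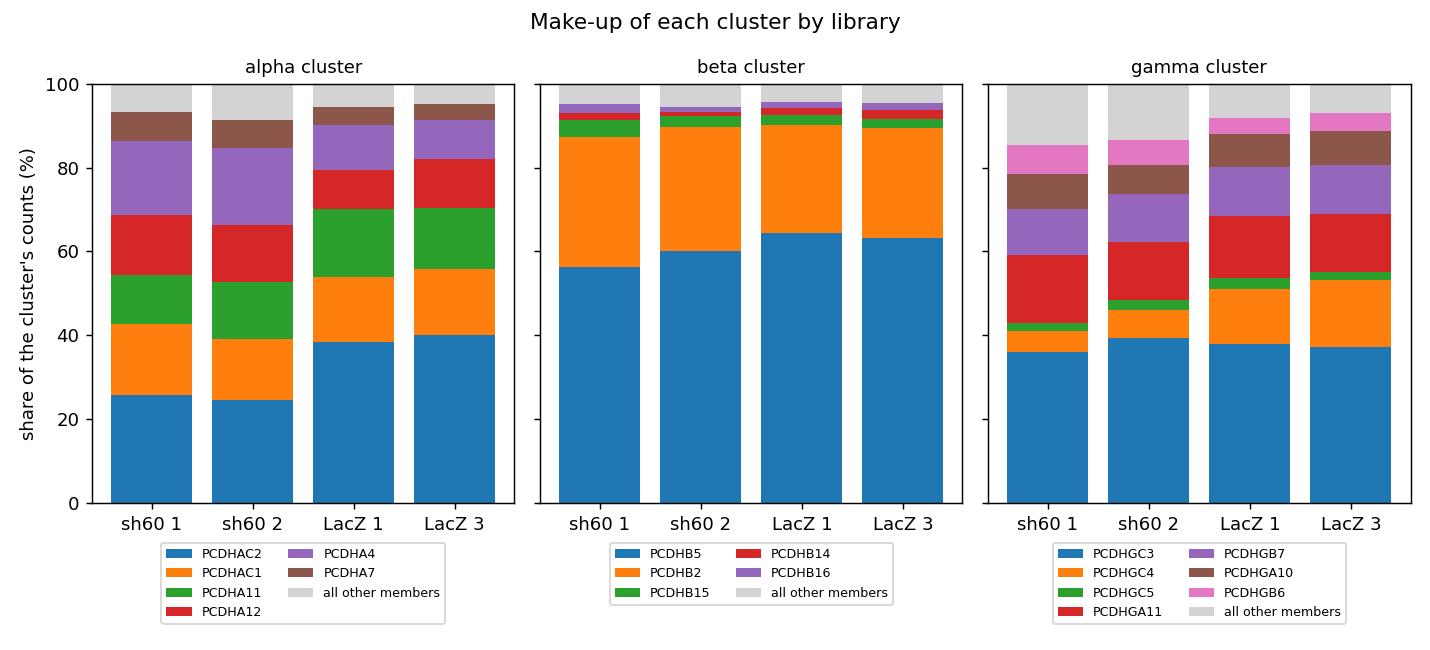
Share of each cluster's counts, in percent, taken by its most abundant genes in each library, with sh60 bars left of LacZ bars. The PCDHGC4 segment of the gamma bars is 5.04% and 6.75% in sh60 and 13.2% and 15.8% in LacZ, and PCDHB5 and PCDHB2 fill most of every beta bar.

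Levels can be set against each other between genes only per length, here as CPM per kb of exon that no other member shares. On that scale the order in sh60 was PCDHB5 at 15.2 ± 1.39, PCDHB2 at 8.34 ± 0.0428, PCDHGC3 at 4.35 ± 0.106, PCDHGA11 at 1.56 ± 0.232 and PCDHAC2 at 1.47 ± 0.179 CPM per kb (SD, n = 2). In LacZ the order was PCDHB5 at 17.8 ± 0.296, PCDHGC3 at 7.91 ± 0.500, PCDHB2 at 7.61 ± 0.0808, PCDHGC4 at 3.25 ± 0.259, PCDHAC2 at 2.72 ± 0.192 and PCDHGA11 at 2.72 ± 0.264 CPM per kb (SD, n = 2). PCDHGA11 and PCDHAC2 did not differ beyond their spread in either group, nor did PCDHGC3 and PCDHB2 in LacZ. These levels were not corrected for reads lost to near-identical stretches inside the own exons, described below. A gene with many such stretches, such as PCDHB2, may stand too low. PCDHGC4 stood at rank 13 in sh60 with 0.725 ± 0.121 CPM per kb, against rank 4 in LacZ. Dividing by the whole exon length of the annotation, shared exons included, would put PCDHGC3 at 4.45 CPM per kb in LacZ.

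Near-identical stretches inside the own exons are a second source of lost reads. Of all 50-base windows of the own exon, 0% occurred unchanged in another member for PCDHAC1, PCDHAC2, PCDHGC3, PCDHGC4 and PCDHGC5. Inexact matches, reads that run from the own exon into a shared exon and matches elsewhere in the genome were not examined. The share was 11.6% for PCDHGA10, 9.63% for PCDHGB7, 1.20% for PCDHGA11, 6.57% for PCDHA4 and 6.94% for PCDHA11. It was 12.4% for PCDHB5 and 20.3% for PCDHB2, and it reached 45.8% for PCDHB8, most of it with PCDHB13. For beta genes the windows cover the whole of the longest GENCODE transcript. That transcript has 3408 bases for PCDHB5 and 4126 for PCDHB2, against 2922 and 2774 in the counted exons, so shares of the counted exons may differ. Reads from windows that occur in another member may be missing from the counts.

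Promoters of clustered protocadherins are known for a conserved element with the core CGCT, which lies a short way before the start and is bound by CTCF in most members. Background knowledge holds that PCDHAC2, PCDHGC4, PCDHGC5 and PCDHB1 lack the full element. RefSeq windows from 250 bases before to 50 bases after the annotated start (GRCh38.p14) were matched for 47 of the 57 genes. The sequences below are those of genes that fell (PCDHGC4, PCDHGC3, PCDHGB7 and PCDHAC2) and of the leading beta genes, all on the plus strand of chromosome 5. Capitals mark CGCT or its reverse complement AGCG, and the motif TGGCGCTG where it occurs.
PCDHGC4, chr5:141484780-141485079: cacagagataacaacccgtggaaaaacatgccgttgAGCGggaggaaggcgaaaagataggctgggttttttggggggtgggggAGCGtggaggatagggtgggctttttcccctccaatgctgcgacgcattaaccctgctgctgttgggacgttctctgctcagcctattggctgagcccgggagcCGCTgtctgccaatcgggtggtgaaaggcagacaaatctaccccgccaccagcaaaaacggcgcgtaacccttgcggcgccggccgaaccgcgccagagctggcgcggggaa
PCDHGC3, chr5:141475716-141476015: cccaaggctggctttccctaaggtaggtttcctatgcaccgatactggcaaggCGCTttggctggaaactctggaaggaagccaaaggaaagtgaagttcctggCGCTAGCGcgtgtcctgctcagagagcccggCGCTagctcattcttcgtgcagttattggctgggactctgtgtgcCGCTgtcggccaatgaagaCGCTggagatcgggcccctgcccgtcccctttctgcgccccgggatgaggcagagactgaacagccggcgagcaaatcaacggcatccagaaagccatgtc
PCDHGB7, chr5:141417427-141417726: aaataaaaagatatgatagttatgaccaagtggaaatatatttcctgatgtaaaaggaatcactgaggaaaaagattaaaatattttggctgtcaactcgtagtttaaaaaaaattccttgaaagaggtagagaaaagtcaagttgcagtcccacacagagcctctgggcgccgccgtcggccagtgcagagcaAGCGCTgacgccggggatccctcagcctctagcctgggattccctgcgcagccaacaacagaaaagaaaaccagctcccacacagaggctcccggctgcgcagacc
PCDHAC2, chr5:140966226-140966525: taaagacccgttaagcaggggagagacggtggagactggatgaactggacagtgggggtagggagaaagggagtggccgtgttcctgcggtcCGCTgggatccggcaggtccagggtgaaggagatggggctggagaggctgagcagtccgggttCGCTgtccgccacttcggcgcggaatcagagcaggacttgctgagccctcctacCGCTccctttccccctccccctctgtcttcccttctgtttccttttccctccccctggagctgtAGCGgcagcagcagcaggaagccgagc
PCDHB5, chr5:141134956-141135255: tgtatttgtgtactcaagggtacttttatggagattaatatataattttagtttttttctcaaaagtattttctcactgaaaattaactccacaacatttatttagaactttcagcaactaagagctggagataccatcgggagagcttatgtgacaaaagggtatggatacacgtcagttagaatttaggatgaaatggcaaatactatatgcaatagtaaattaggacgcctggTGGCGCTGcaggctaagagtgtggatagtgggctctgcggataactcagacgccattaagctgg
PCDHB2, chr5:141094365-141094664: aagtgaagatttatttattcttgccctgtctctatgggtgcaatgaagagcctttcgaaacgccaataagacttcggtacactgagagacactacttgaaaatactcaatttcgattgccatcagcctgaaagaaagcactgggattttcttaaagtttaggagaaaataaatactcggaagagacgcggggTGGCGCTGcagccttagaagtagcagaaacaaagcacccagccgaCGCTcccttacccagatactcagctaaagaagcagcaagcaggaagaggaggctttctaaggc

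CGCT alone does not separate the genes that fell from those that did not. CGCT, searched on both strands, was in 51 of the 52 windows of the 47 member genes, 5 of which have a pair of windows, and in 70.0% of the 35116 windows of the whole table. The longer TGGCGCTG, which was chosen after the promoters had been read and which contains CGCT, was in 14 of the 52 member windows on either strand and in 1.91% of all windows. By gene, it was in 12 of 14 beta, 0 of 13 alpha and 1 of 20 gamma genes. No matched gene that fell held it, and neither did the matched alpha and gamma genes that did not fall, other than PCDHGB4. Motif and cluster therefore cannot be told apart. In the beta genes the place of TGGCGCTG varied from position -82 to 0 relative to the start. The windows of the genes that fell ranged widely in CpG content. PCDHGC4 held 23 and 24 CpG in its pair of windows, PCDHGC3 18, PCDHAC2 15, PCDHGA11 12, PCDHGB7 11, PCDHA11 7 and PCDHGA10 5, and PCDHGC5 was not matched. The medians were 7 over alpha, 7.5 over beta and 7 over gamma genes, by the first window of each, and 14 over all windows. PCDHAC1, which did not pass, held 27.

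Genes around the clusters passed about as often as all genes, with 25% called, beside 28.8%. Of 18 neighbours listed on chromosome 5, 16 were tested, 4 fell (25%, beside 13.0% lower among all genes) and 0 rose. Those on the alpha side did not pass, among them ZMAT2, with 79.3 and 75.8 CPM in sh60, against 69.7 and 70.7 CPM in LacZ (log2 fold change 0.14, edgeR adjusted p = 0.253). TAF7, a subunit of the general transcription factor TFIID that lies between the beta and gamma clusters, had 78.6 and 72.0 CPM in sh60, against 76.9 and 72.5 CPM in LacZ (log2 fold change 0.01, edgeR adjusted p = 0.949). DIAPH1, an actin-nucleating formin just beyond PCDHGC5, had 188.1 and 177.3 CPM in sh60, against 201.2 and 193.3 CPM in LacZ (log2 fold change -0.11, edgeR adjusted p = 0.343). These 3 were chosen after their values were seen. The genes that fell lie farther out on the gamma side. They were HDAC3, a histone deacetylase (log2 fold change -0.33 ± 0.0916 SE, edgeR adjusted p = 0.0111), ARAP3 (-0.49 ± 0.103 SE, 0.0015), PCDH1 and PCDH12. Of 741 tested genes on chromosome 5, 29.3% passed, beside 28.8% of all genes, and their median log2 fold change was 0.03.

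**Figure D4:**
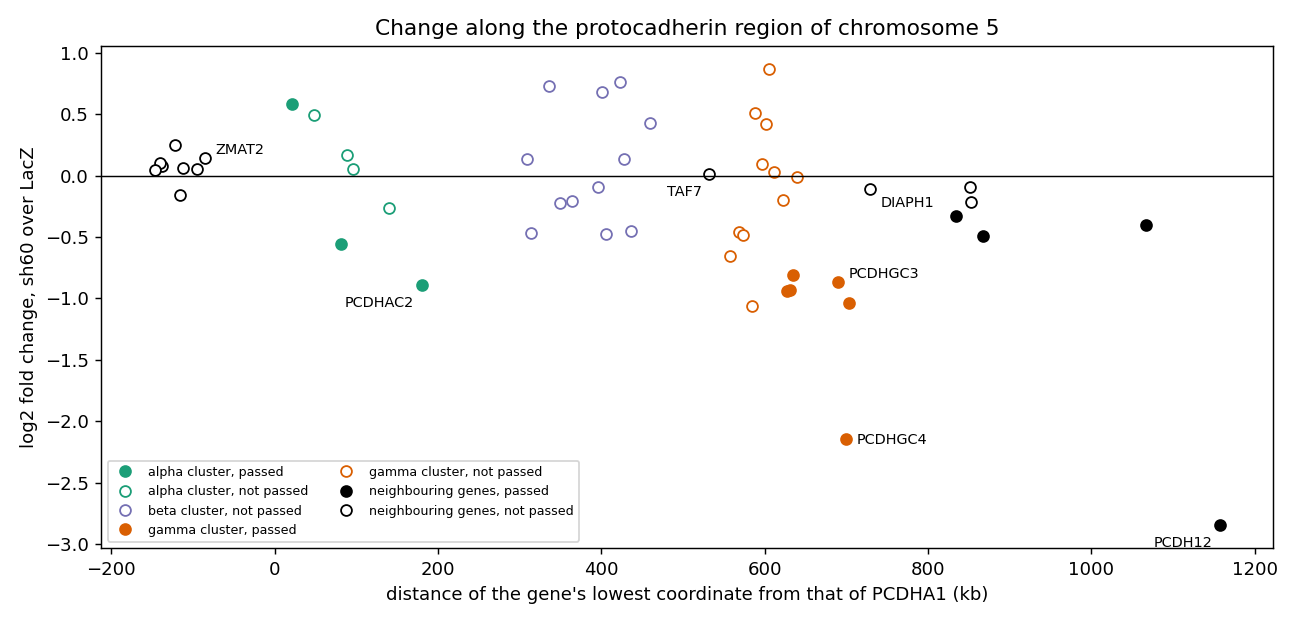
Log2 fold change of sh60 over LacZ for the tested members and neighbouring genes, against distance in kb along chromosome 5 from the start of PCDHA1, filled where the edgeR adjusted p is under 0.05. The gamma genes that fell lie at the distal end of their cluster. TAF7 and DIAPH1 on either side of that cluster lie at 0.01 and -0.11, and HDAC3, beyond DIAPH1, at -0.33.

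Protocadherins outside the clusters are separate genes on several chromosomes with the same kind of cadherin domains. Of 10 tested, 5 fell (50%, beside 13.0% lower among all genes), 0 rose and 5 did not pass. PCDH7 had 19.9 and 18.7 CPM in sh60, against 42.0 and 38.9 CPM in LacZ (log2 fold change -1.07 ± 0.105 SE, edgeR adjusted p = 7.1e-07). PCDH19, an X-linked gene in which loss causes epilepsy, had 19.9 and 18.7 CPM in sh60, against 41.0 and 35.5 CPM in LacZ (log2 fold change -0.99 ± 0.110 SE, edgeR adjusted p = 2.55e-06). Neither gene overlapped between the groups. PCDH1 had 43.7 and 45.1 CPM in sh60, against 58.1 and 59.0 CPM in LacZ (log2 fold change -0.40 ± 0.0937 SE, edgeR adjusted p = 0.00361). PCDH12, an endothelial protocadherin, was near the floor with 3 and 2 counts in sh60, against 16 and 18 counts in LacZ (log2 fold change -2.85 ± 0.640 SE, edgeR adjusted p = 0.00255), and it did not pass without sh60 replicate 2 (0.0535). PCDH8 was the fifth (log2 fold change -0.43). Without LacZ replicate 3, 3 of the 10 passed, and without LacZ replicate 1, 4 passed as lower and PCDH17, named for this after its values were seen, as higher (log2 fold change 0.63, edgeR adjusted p = 0.0408).

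The giant cadherins of the FAT, Dachsous and CELSR families steer planar polarity and growth. Of 9 tested, 2 rose (22.2% called, near the 28.8% of all genes), 0 fell and 7 did not pass. With GC and length trends removed DCHS2, named for this after its values were seen, passed as lower (log2 fold change -0.35, edgeR adjusted p = 0.0426). FAT1 had 307.7 and 275.2 CPM in sh60, against 215.9 and 196.2 CPM in LacZ (log2 fold change 0.50 ± 0.0860 SE, edgeR adjusted p = 0.000262). FAT4 had 10.0 and 8.26 CPM in sh60, against 7.05 and 6.69 CPM in LacZ (log2 fold change 0.40 ± 0.147 SE, edgeR adjusted p = 0.046). The call for FAT4 was lost with DESeq2, with upper-quartile scaling, with GC and length trends removed and in 3 of the 4 fits that left out a library.

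CTCF and cohesin hold the loops through which protocadherin promoters reach their enhancers. Of 13 such genes, 4 fell, 0 rose and 9 did not pass. That is 30.8% called, near the 28.8% of all genes, of which 13.0% were lower. CTCF had 174.5 and 160.1 CPM in sh60, against 217.8 and 218.2 CPM in LacZ (log2 fold change -0.38 ± 0.0820 SE, edgeR adjusted p = 0.00176). The cohesin genes PDS5A (log2 fold change -0.33 ± 0.0870 SE), SMC1A (-0.29 ± 0.0804 SE) and RAD21 (-0.29 ± 0.0830 SE) also fell, with intervals that overlap that of CTCF, while the core subunit SMC3 did not pass (-0.08, edgeR adjusted p = 0.581). These counts depend on single libraries. They were 0 without LacZ replicate 1 and without LacZ replicate 3, and 11 without sh60 replicate 1.

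Silencing factors linked with the clusters were lower where they passed. Of 15 tested, 6 fell (40%, beside 13.0% lower among all genes), 0 rose and 9 did not pass. DNMT3B, the de novo DNA methyltransferase that in mice methylates protocadherin promoters before neurons choose among them, had 573.0 and 545.7 CPM in sh60, against 879.7 and 956.9 CPM in LacZ (log2 fold change -0.72 ± 0.0788 SE, edgeR adjusted p = 2.47e-06). UHRF1, which brings DNMT1 to newly made DNA, had 37.7 and 40.1 CPM in sh60, against 76.2 and 71.8 CPM in LacZ (log2 fold change -0.93 ± 0.0951 SE, edgeR adjusted p = 1.11e-06). DNMT1 itself (log2 fold change -0.30 ± 0.0767 SE) and the co-repressor TRIM28 (-0.29 ± 0.0822 SE) fell less. SMCHD1, which represses the clusters in mice, did not pass (log2 fold change 0.02, edgeR adjusted p = 0.907). Of the 6 calls, 2 were left without LacZ replicate 1 and 2 without LacZ replicate 3. DNA methylation itself was not measured.

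Partners and processing enzymes passed about as often as all genes. Of 21 tested, 4 rose, 2 fell (RET and NCKAP1) and 15 did not pass, so that 28.6% were called, beside 28.8% of all genes. Of the 4 that rose, 3 encode components of gamma-secretase (PSEN2, NCSTN and APH1B), which cuts the tail off protocadherins after ADAM10 has shed the outer part, while APH1A and PSENEN, which also encode components, did not pass. PSEN2, a catalytic subunit, had 46.6 and 51.9 CPM in sh60, against 34.7 and 34.5 CPM in LacZ (log2 fold change 0.51 ± 0.0996 SE, edgeR adjusted p = 0.000786), and APH1B had a log2 fold change of 0.36 ± 0.112 SE (edgeR adjusted p = 0.0224). CYFIP2, a subunit of the WAVE complex that binds protocadherin tails, had 101.5 and 103.0 CPM in sh60, against 76.0 and 72.5 CPM in LacZ (log2 fold change 0.46 ± 0.0872 SE, edgeR adjusted p = 0.000609). RET, a receptor kinase that phosphorylates protocadherins in mouse cells, had 44.8 and 43.2 CPM in sh60, against 53.9 and 61.7 CPM in LacZ (log2 fold change -0.39 ± 0.0993 SE, edgeR adjusted p = 0.00612). ADAM10 did not pass (log2 fold change -0.02, edgeR adjusted p = 0.881). In place of these 6 calls, the list had 3 without LacZ replicate 1 and 1 without LacZ replicate 3.

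**Figure D5:**
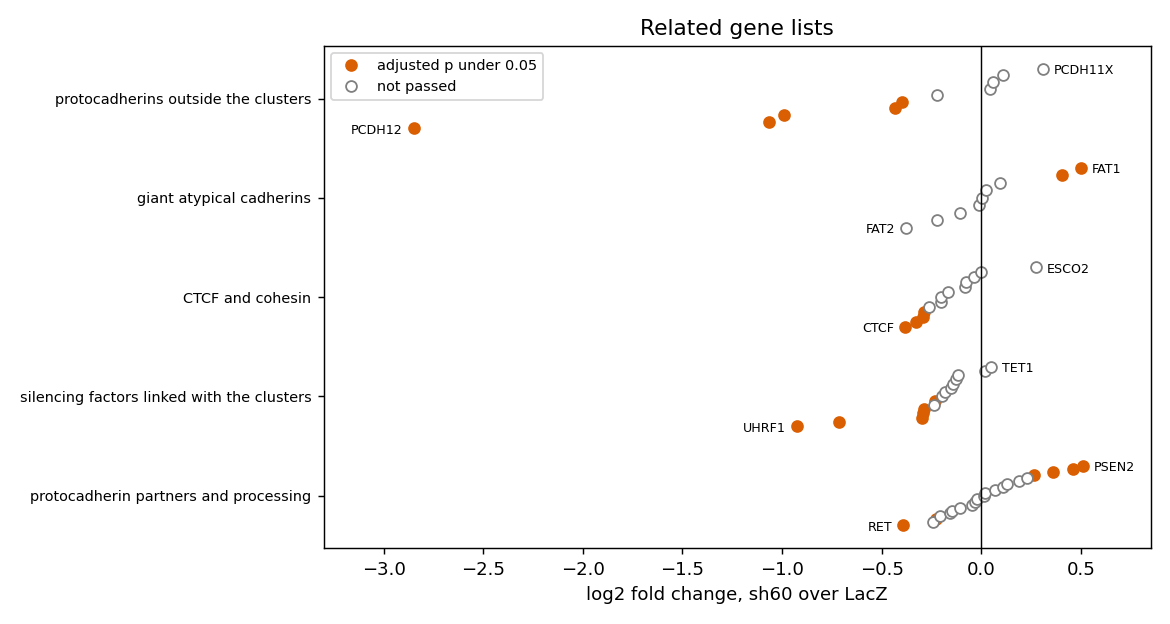
Log2 fold change of sh60 over LacZ for the tested genes of 5 related lists, 1 row per list, filled where the edgeR adjusted p is under 0.05. Filled points lie left of 0 for protocadherins outside the clusters, CTCF and cohesin, and silencing factors. They lie right of 0 for giant cadherins (FAT1 and FAT4) and on both sides of 0 for partners and processing enzymes.

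Markers of cell states and of other cell types gave mixed values, beside 15.8% higher and 13.0% lower among all genes. The libraries carried the pluripotent profile of NTERA2, with 5682 and 5489 CPM summed over 10 markers in sh60, against 5586 and 5674 CPM in LacZ, sums that overlap, and 1 marker rose (SOX2), 3 fell (TDGF1, SALL4 and NANOG) and 6 did not pass. Of 14 tested neural markers 7 rose and 2 fell, and their sum over 16 genes was 946.5 and 947.8 CPM in sh60, against 739.7 and 714.7 CPM in LacZ. SNAP25 and MAP2 were among those that rose, and RBFOX3 and NCAM1 fell. NES, which also rose, is the largest part of the neural sum, with 527.6 and 507.6 CPM in sh60, against 394.1 and 387.9 CPM in LacZ. Of 8 fibroblast markers 4 rose and 2 fell, with sums of 858.7 and 1013 CPM in sh60, against 450.2 and 366.5 CPM in LacZ, and THY1 and PDGFRA were those that fell. COL1A1 alone had 553.7 and 684.0 CPM in sh60, against 141.4 and 84.9 CPM in LacZ. COL1A2 also rose, with 70.6 and 76.2 CPM in sh60, against 19.9 and 13.2 CPM in LacZ, as did LUM and POSTN. The fibroblast markers other than COL1A1, 7 in number, summed to 305.0 and 329.0 CPM in sh60, against 308.9 and 281.6 CPM in LacZ, which overlap. THY1 is the largest part of that sum, with 175.3 and 189.1 CPM in sh60, against 232.8 and 229.9 CPM in LacZ, so the sum hides the rises. The 8 blood cell markers summed to 2.91 and 3.14 CPM in sh60, against 2.85 and 2.46 CPM in LacZ, with PTPRC and HBB at 0 in every library, and LYZ rose and CD74 fell among the 3 tested. The part of these changes in the protocadherin result was not tested.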

How the data were processed

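RNA was sequenced single-end from 4 libraries of NTERA2 cells, pooled on a NovaSeq instrument after a stranded mRNA kit, per the labels' protocols. Alignment to hg19 (GRCh37) used STAR 2.7.6a, per the submitters' processing notes. The deposited values are raw counts per gene symbol, made by the authors with featureCounts of Subread 2.0.0 over exons on the reverse strand, per the file headers. The recorded command keeps neither multi-mapping reads nor reads over more than 1 gene, so both kinds are missing by default.

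From these counts edgeR 4.0.16 (R 4.3.3) was run with TMM scaling, filterByExpr, the group as the only term and Benjamini-Hochberg adjustment over 16040 genes. The common biological coefficient of variation was 7.33%. The members and all gene lists were chosen with earlier results of these data known. Named genes are BEND3, the C-type genes, members past the threshold and the 3 highest members of each cluster, and up to 4 called genes of each other list. One gene of the list of partners and processing enzymes is not reported here and is left out of its counts. Any other gene named was chosen after its values were seen. The procedure was tested on simulated data. Own and shared exons came from the deposited exon coordinates, junctions and 50-base windows from GENCODE release 29, and promoters from RefSeq (GRCh38.p14); builds were not converted. WAPL is listed as WAPAL. Within groups, replicates were farther apart than sampling noise (chi-square divided by its degrees of freedom, 16.8 in sh60 and 6.19 in LacZ). Alternatives were DESeq2 1.42.0, other scalings and filters, each library left out, and, added after seeing the data, removal of GC and length trends and other scalings of the cluster sums.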

Additional observations from a re-analysis of the deposited data

How the results depend on the processing

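The calls of PCDHGC4, PCDHGC3, PCDHGA10, PCDHGB7, PCDHGA11 and PCDHAC2 held under all 11 alternatives. The gamma cluster had 5 or 6 falls and no rise under each of them, and the family had 6 to 10 calls. With 2 libraries a group, depth and single libraries limit the rest. In the alpha cluster 1 member passed with DESeq2 and in each fit that left out a library, in place of 3. In the beta cluster 1 passed without a count filter (PCDHB11), 1 with GC and length trends removed (PCDHB5), and 0 to 1 when a library was left out. For lists, the fits that left out a library gave 3 to 5 protocadherins outside the clusters, 1 to 2 giant cadherins, 0 to 11 CTCF and cohesin genes, 2 to 9 silencing factors, 1 to 6 neighbours and 1 to 9 partners. Upper-quartile scaling and DESeq2 each left 1 giant cadherin. Without a count filter the median log2 fold change was -0.19 over gamma, 0.34 over alpha and 0.14 over beta. Removing GC and length trends gave 9 CTCF and cohesin genes, 11 silencing factors and 11 partners, and over all genes 2930 higher and 3691 lower calls, against 2540 and 2084. Upper-quartile scaling gave 2424 higher and 2575 lower, and library totals 2816 higher and 1870 lower. Leaving out a library gave 2287 to 5486 calls over all genes. BEND3 had log2 fold changes of -0.56 to -0.36 when a library was left out, and the beta sum had log2 ratios of -0.14 to -0.048, beside -0.092. None of the genes chosen by the naming rule reversed, and genes named outside it were not followed. The cause of these shifts was not tested. A library left out leaves 1 sample in its group, which is then assumed to vary like the others. No paired analysis was possible because the groups share only replicate number 1.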
